A study of Mus musculus with 17 samples.

Results

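The collagen genes of mouse perigonadal fat (pWAT, white adipose tissue next to the gonads) are described here. Members were chosen by name alone, as protein-coding genes whose symbol is Col, a number, the letter a and a number, and 44 of the 55401 gene identifiers in the deposited data met this rule. RNA-seq was done with 1 library per mouse on pWAT of 5 WT females, 5 *U90926*-deficient (U9-KO) females, 3 WT males and 4 U9-KO males. All 17 mice were C57BL/6J animals on standard chow, and the labels record no treatment, although mice of this phenotyping clinic also went through metabolic tests such as glucose tolerance. The methods give 16 weeks as the age at death, but other parts of the same schedule run later, so the age is uncertain. U9-KO mice lack all 5 exons of the long non-coding RNA gene *U90926* in every cell, and the WT controls came from the same heterozygous breeders. The comparison asks whether loss of *U90926* alters the RNA content of the fat pad.

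Collagens are extracellular proteins whose chains wind around each other into a rope-like helix. Fibrillar collagens (types I, III, V and their relatives) form the tensile fibres of connective tissue, type IV collagens form the sheet of the basement membrane that surrounds each adipocyte and blood vessel, and type VI collagens form beaded filaments that are plentiful in fat. FACIT collagens decorate the surface of fibrils, and multiplexins such as types XV and XVIII link basement membranes to the surrounding matrix. The 44 members comprised 11 fibrillar, 6 basement membrane, 6 beaded filament, 9 FACIT, 3 network-forming, 2 multiplexin and 4 transmembrane collagens, the anchoring fibril collagen *Col7a1*, and 2 others (*Col26a1* and *Col28a1*).

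The values are normalized counts, that is, read counts which the authors scaled by library size factors and rounded to whole numbers. They summed to between 20243688 and 28620744 per library, and the depth in reads is unknown. *U90926* itself was at 1 in a single WT mouse of each sex (WT female 3, WT male 2) and at 0 elsewhere, so these values do not tell the genotypes apart. By RT-qPCR the paper reported less *U90926* in pWAT of U9-KO mice, where the WT level was detectable but low. Adipocyte markers were plentiful in every library (summed normalized counts of 5 genes from 192504 to 576076). Markers of other tissues varied among the females. The summed count of 10 ovary markers was 140219 in U9-KO female 1 and 125048 in WT female 4, and it was 4080 to 38058 in the other females and 208 to 454 in males. The summed count of 5 mural and smooth muscle markers was 178572 in U9-KO female 4 and 142483 in WT female 3, against 21197 to 101971 in the other females and 11246 to 16657 in males. Values without these females are given for the female genotype effects of the genes that were highest in them and for the sex differences. Each library was taken as 1 mouse, and the p-values measure the spread between these mice. In whole tissue, fewer cells of a type and less RNA per cell cannot be told apart.

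Collagen transcripts made up 0.663% to 1.49% of all normalized counts in females and 0.733% to 1.14% in males. Fibrillar, basement membrane and beaded filament genes carried most of that signal once each gene was divided by its exon length. That length counts all annotated exons of a gene together, such as 12426 bases for *Col1a2* and 6563 for *Col1a1*. Shares and ranks per kilobase therefore depend on the annotation as well as on the RNA. Fibrillar collagens held a median of 38.0% of the length-corrected collagen signal in females and 40.1% in males, basement membrane collagens held 24.6% and 30.9%, and beaded filament collagens held 21.6% and 17.2%. The 2 multiplexins held 10.3% and 9.57%. FACIT collagens were a small part, with 3.62% in females and 1.10% in males, and each of the remaining classes stayed under 1%.

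Ranked per kilobase (kb) of exon, on the scale common to both sexes, *Col3a1* was the most abundant collagen in females, at 4885 ± 1531 normalized counts per kb (SD, n = 10), and in males it was at 4659 ± 340.0 (SD, n = 7). *Col3a1* encodes the chain of type III collagen, a fibril former of soft tissues. *Col4a1*, an obligate chain of most basement membranes, came next in females, at 3727 ± 415 per kb, and was the highest in males, at 5046 ± 752. Its partner *Col4a2* had 2601 ± 366 per kb in females and 3622 ± 618 in males. The type VI chain *Col6a1* reached 3271 ± 758 and 2399 ± 456, the type I chain *Col1a1* 2921 ± 1442 and 1608 ± 272, and the multiplexin *Col15a1* held the sixth place in both sexes, at 2347 and 2107 per kb. The spreads of neighbours in this order overlapped, so the order within the first few places is a description only.

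The other fibrillar genes covered a wide range of levels. *Col1a2*, the second chain of type I collagen, stood at 1706 per kb in females and 1498 in males, and the type V chains *Col5a1* and *Col5a2* stood at 715 and 509 in females and 839 and 532 in males. *Col27a1* was at 71.4 per kb in females and 16.4 in males, and *Col11a1*, *Col11a2*, *Col24a1* and *Col2a1* were all below 20 per kb in both sexes. *Col2a1*, the main collagen of cartilage, never exceeded 4 normalized counts. Among basement membrane genes *Col4a5* (232 per kb in females) and *Col4a6* (103) were well under *Col4a1*, and *Col4a4* (48.9) and *Col4a3* (17.8) lower again. *Col9a1* was at 0 or 1 in every mouse and was the lowest member. In all, 43 members passed the filter of a total of at least 10 over the female mice and 41 passed it over the male mice. *Col9a1* missed it in both sexes, and *Col2a1* and *Col9a2* missed it in males.

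**Figure D1:**
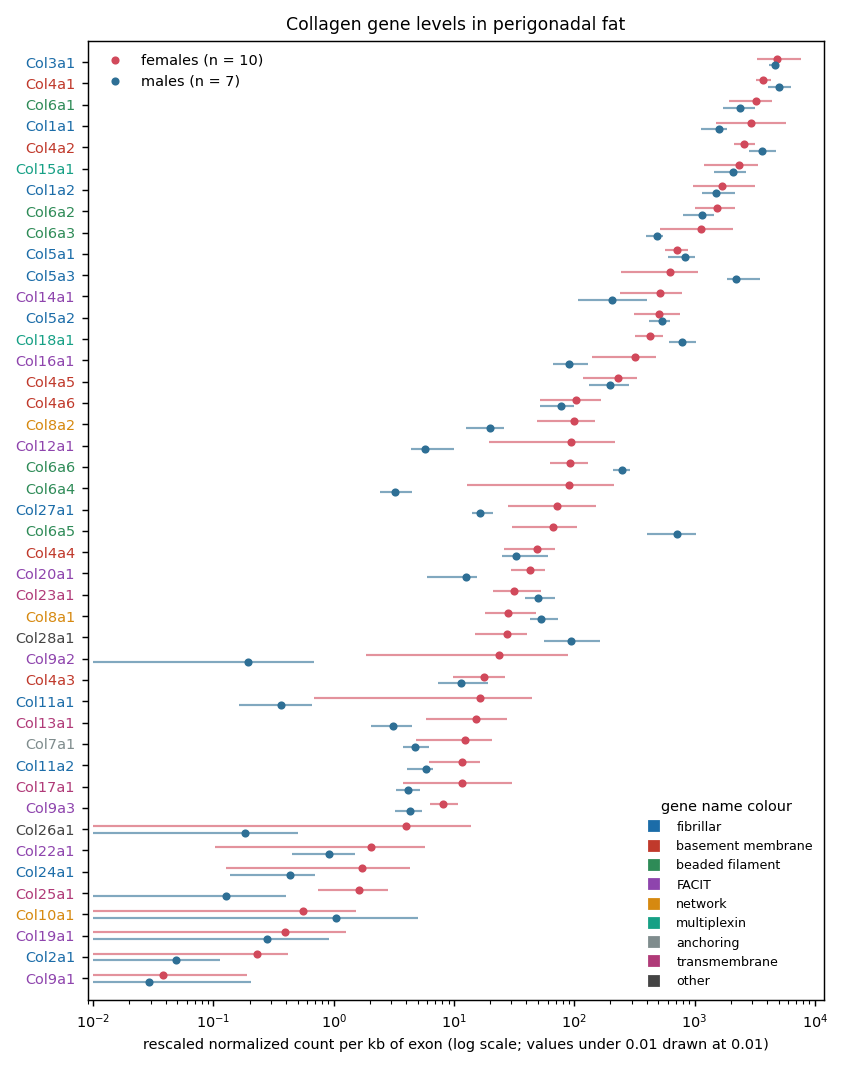
Level of each of the 44 collagen genes per kb of exon (log axis), with normalized counts brought to a scale common to both sexes. Points are means, bars run from the lowest to the highest mouse, and gene names are coloured by collagen class; *Col3a1*, *Col4a1* and *Col6a1* lead in females and *Col4a1*, *Col3a1* and *Col4a2* in males.

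Collagen levels varied more among females than among males. Of the 34 members whose mean normalized count reached 10 in both sexes, 28 had the larger SD of log2 values in females. Over all 16209 genes at that level the share was 71.3%. The median SD of log2 values was 0.47 for collagens in females and 0.27 in males, beside 0.26 and 0.19 for all genes. Individual mice stood at the ends of many collagens together. WT female 3 and U9-KO female 4, the females highest in mural and smooth muscle markers, each held the highest value of 10 of 40 collagens. These females were also the highest in oviduct markers (8016 and 1750, the others 104 to 550). The same was true of mesothelial markers (12877 and 14587, the others 6728 to 11944). WT female 3 had the highest fibroblast and progenitor sum of the females too (25466). They are called the smooth muscle-rich pair below. U9-KO female 3, which had the highest adipocyte and the lowest smooth muscle marker sum of the females, held the lowest value of 16. In males WT male 2 was highest in 21 of 34 collagens and WT male 1 lowest in 20. How often each mouse was highest or lowest over all genes was not counted, so these counts have no background beside them. The part of tissue composition in this spread was not tested.

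Loss of *U90926* was compared within each sex. In females *Col1a1* had normalized counts of 13737, 15610, 38987, 15793 and 25473 in the WT mice and 11903, 12396, 10433, 32668 and 21707 in the U9-KO mice. The groups overlapped over almost their whole range, and the high mouse of each group was one of those richest in smooth muscle, oviduct and mesothelial markers. The log2 fold change of U9-KO over WT was -0.32 (95% interval -1.11 to 0.47). Leaving out WT female 3 gave -0.09, leaving out U9-KO female 4 gave -0.58, and leaving out both gave -0.34. *Col3a1* followed the same mice, with 43043, 43414, 77845, 42688 and 61219 in WT and 33648, 35654, 41716, 72411 and 45973 in U9-KO females, and a log2 fold change of -0.24 (-0.78 to 0.30). That value was -0.09 without WT female 3, -0.42 without U9-KO female 4 and -0.27 without both.

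*Col4a1* measured 33766, 29661, 29314, 25144 and 28092 in WT and 26258, 24985, 33198, 32144 and 26580 in U9-KO females, and its log2 fold change was -0.03 (-0.32 to 0.26). Its head-to-head neighbour *Col4a2* had a log2 fold change of 0.00 (-0.31 to 0.31). Type VI genes did not pass either, at -0.13 (-0.57 to 0.32) for *Col6a1* and -0.35 (-1.09 to 0.39) for *Col6a3*. *Col6a3* was at -0.64 without U9-KO female 4, at -0.15 without U9-KO female 3 and at -0.54 without the smooth muscle-rich pair. The FACIT gene *Col12a1*, whose product binds to type I fibrils, measured 1422, 740, 2339, 1760 and 2105 in WT and 767, 839, 317, 3437 and 1024 in U9-KO females. Its groups overlapped, and the log2 fold change was -0.73 (-1.88 to 0.42). It was -1.20 without U9-KO female 4, -0.34 without U9-KO female 3, -1.05 without the smooth muscle-rich pair and -1.01 without both pairs.

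By class, the median log2 fold change in females was -0.03 for the 11 fibrillar, -0.06 for the 6 basement membrane and -0.14 for the 6 beaded filament genes, and -0.11 for the 8 FACIT genes tested. Over the 43 collagens the median was -0.03 and the single values ran from -1.38 to 0.83, with 19 above and 24 below 0. By limma 0 of 43 collagens passed an adjusted p under 0.05 (background 0% of 24825 genes). The paper, which used DESeq2, reported some genes at that threshold in each sex. The background of 0% therefore belongs to the limma test used here. At an unadjusted p under 0.05 there were 0 collagens, against 2.23% of all genes. No collagen had U9-KO and WT females that did not overlap, against 0.238% of all genes. The median standard error was 0.31 for collagens and 0.27 for all genes on the log2 scale. Leaving mice out changed the count of collagens at an unadjusted p under 0.05 by limma. It was 3 without U9-KO female 4, 2 without WT female 1, and 1 without WT female 3 or WT female 4. Without the smooth muscle-rich pair it was 2, and without both pairs 3. The share of all genes at that level was not taken in these fits.

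In males *Col1a1* had normalized counts of 7166, 11616 and 11305 in WT and 11379, 8533, 10006 and 10769 in U9-KO mice, with a log2 fold change of 0.05 (-0.33 to 0.42). *Col3a1* had 41828, 43070 and 47602 in WT and 47255, 39128, 45718 and 42250 in U9-KO males, a log2 fold change of -0.02 (-0.29 to 0.24). *Col4a1* had 29368, 45044 and 36273 in WT and 37642, 31089, 34502 and 38682 in U9-KO males, a log2 fold change of -0.04 (-0.38 to 0.30). In each of these genes the U9-KO males lay inside or across the range of the WT males.

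*Col15a1*, which encodes a basement membrane zone collagen abundant around fat cells and small vessels, came nearest to a difference. It measured 8783, 11707 and 11678 in WT and 15848, 14304, 11190 and 16292 in U9-KO males. U9-KO males 1, 2 and 4 lay above every WT male and U9-KO male 3 lay between them. The log2 fold change was 0.42 (0.09 to 0.76), with an unadjusted p of 0.0185 and an adjusted p of 0.614 by limma, so it did not pass the test. *Col15a1* in females measured 22152, 22228, 12034, 7880 and 11954 in WT and 12741, 16242, 19377, 14080 and 16323 in U9-KO mice, and its log2 fold change there was 0.14 (-0.44 to 0.73). *Col5a3*, a type V chain, had 12431, 12212 and 12098 in WT and 15690, 13906, 12231 and 22825 in U9-KO males. U9-KO male 3 fell between the WT males, and the log2 fold change was 0.36 (-0.04 to 0.76, adjusted p = 0.664 by limma).

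All 6 type IV genes had a value below 0 in males, from -0.27 to -0.04, and none passed the test. The 10 fibrillar genes tested split into 6 above and 4 below 0, and over all 41 collagens the median was -0.02. By limma 0 of 41 collagens passed an adjusted p under 0.05 (background 0% of 21930 genes, the smallest adjusted p being 0.612). In males too the paper reported genes at that threshold with DESeq2. At an unadjusted p under 0.05 there was 1 collagen (*Col15a1*), against 7.60% of all genes. That count was 7 without WT male 1, where 71 of all genes and 0 collagens passed the adjusted test, and 2 without WT male 3 or U9-KO male 3. It was 0 without U9-KO male 1 or U9-KO male 4, with no trend and with the replicate block. The share of all genes at that unadjusted level was not taken in these other fits. In all 7 males 0 collagens had groups that did not overlap, against 7.60%. The median standard error was 0.24 for collagens and 0.20 for all genes. Beside these values, the summed count of 4 B cell markers was 194 to 209 in U9-KO males and 285 to 666 in WT males, and all 4 had an unadjusted p under 0.05 but an adjusted p of at least 0.612 by limma. The part of B cells in the male values was not tested.

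**Figure D2:**
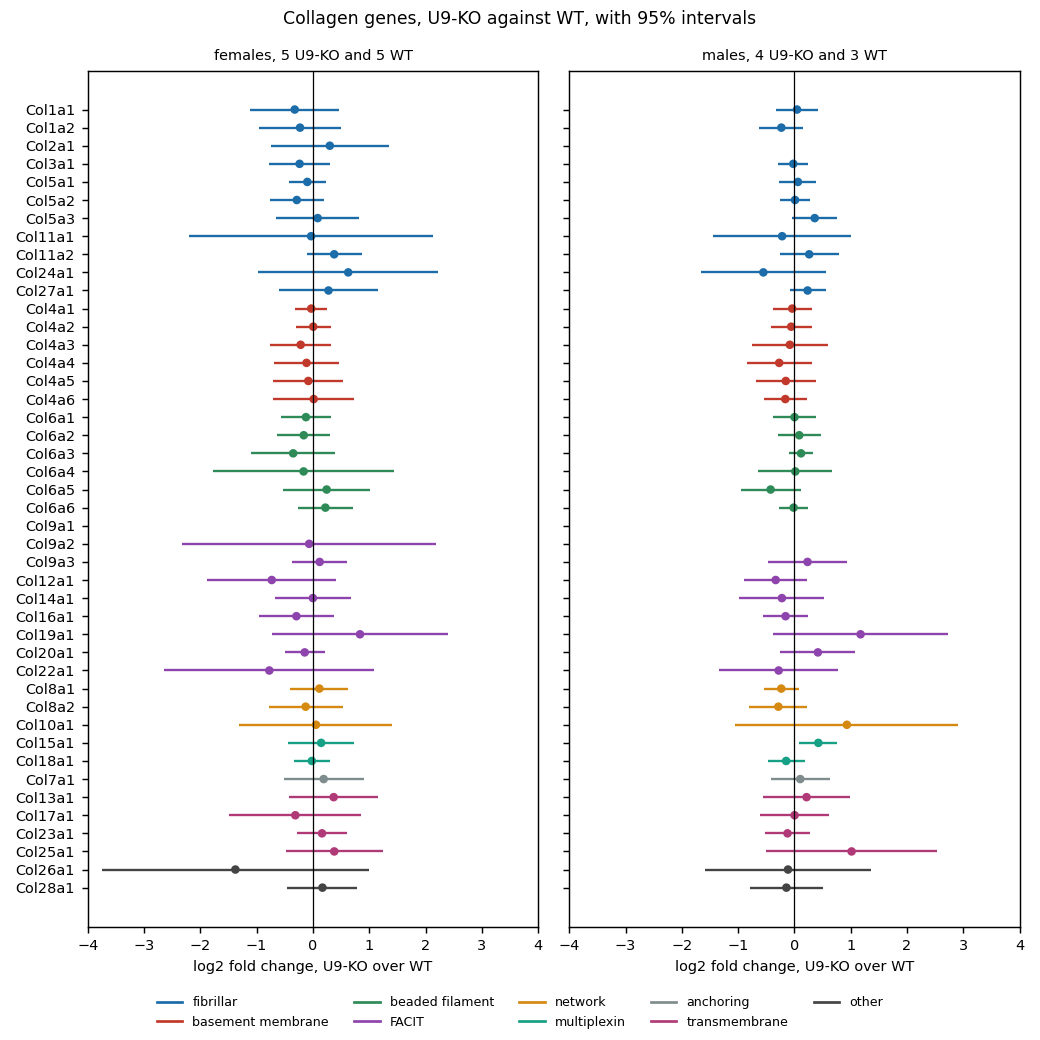
Log2 fold change of U9-KO over WT for each collagen gene with its 95% interval, in females (left) and males (right), coloured by class; genes without a mark did not pass the filter. In females every interval holds 0, and in males the interval of *Col15a1* (0.09 to 0.76) lies above it.

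With both sexes in a fit and sex as a covariate, the collagens again gave 0 calls of 43 by limma, with 0 at an unadjusted p under 0.05 where 4.02% of the 26289 genes tested were at that level. The median log2 fold change was -0.06, with 16 genes above and 27 below 0. *Col1a1* stood at -0.17 (-0.66 to 0.32), *Col3a1* at -0.15 (-0.47 to 0.17) and *Col4a1* at -0.03 (-0.24 to 0.17). In other fits of both sexes the count of collagens at an unadjusted p under 0.05 by limma ran from 0 to 3. It was 3 without U9-KO female 4, without WT female 4, without the smooth muscle-rich pair and without both pairs. The test of whether the U9-KO effect differed between the sexes also called 0 of 43 collagens, with 0 at an unadjusted p under 0.05 against 3.46% of all genes. For *Col15a1* the difference of the effects was 0.28 (-0.49 to 1.05). In other fits of this test the count of collagens at an unadjusted p under 0.05 ran from 0 to 2.

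The genes that make, cut, link and read collagens were looked at beside them. Of 8 lists, covering 20 genes of chain modification and folding, 8 of propeptide removal, 7 of crosslinking, 14 of degradation and its inhibitors, 11 receptors, 10 small leucine-rich proteoglycans, 12 basement membrane partners and 14 TGF-beta signals, 0 members passed the test between U9-KO and WT mice of either sex. All 7 crosslinking genes had values below 0 in females, with a median of -0.16, and 6 of 7 did in males, with a median of -0.10. Over all genes 12418 of 24825 were below 0 in females and 10935 of 21930 in males. Other lists leaned the same way in females, with 14 of 20 modification, 11 of 14 degradation, 10 of 12 basement membrane and 9 of 11 receptor genes. Of the remaining lists in females, 5 of 8 propeptide and 6 of 10 proteoglycan genes were below 0, and the TGF-beta genes split into 7 and 7. In males 10 of 13 degradation, 8 of 10 receptor and 6 of 12 basement membrane genes were below 0. So were 10 of 14 TGF-beta, 7 of 9 proteoglycan, 6 of 8 propeptide and 11 of 19 modification genes tested there. *Serpinh1*, the collagen chaperone HSP47 and the most abundant of the modification list per kb, was at -0.03 in females and 0.25 in males. The most abundant crosslinking genes per kb, *Tgm2* and *Pxdn*, were at -0.01 and -0.11 in females and at 0.12 and -0.10 in males. In males 4 of 92 partner genes tested (4.35%, against 7.60% of all genes) had an unadjusted p under 0.05, a share below that of all genes. They were the receptor *Adgrg1* (log2 fold change -0.28), the latent TGF-beta binding protein *Ltbp2* (0.50), and the metalloproteinase inhibitors *Timp1* (-0.81) and *Timp2* (-0.31), all with an adjusted p of at least 0.614 by limma. In females 0 of 96 partner genes, against 2.23% of all genes, reached an unadjusted p under 0.05.

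Males and females differed in many collagens. The fat pad beside the gonads is parametrial in females and epididymal in males, so sex and depot cannot be told apart, nor can they be from the ovary, oviduct and smooth muscle transcripts that the female libraries hold. For this comparison the deposited values were brought to a common scale, and genotype was a covariate. Fold changes and overlaps between the sexes are on that scale. Ranges and medians of normalized counts are as deposited, unless the common scale is named. By limma 32 of 43 collagens differed at an adjusted p under 0.05, against 39.0% of the 26289 genes tested. Of these 9 were higher in males, where 16.6% of all genes were, and 23 were lower, where 22.4% of all genes were. The 2 sexes did not overlap in 16 collagens, against 11.4% of all genes. These backgrounds include many genes of low level. Among the 17521 genes with a mean normalized count of at least 10, 8532 were called and 2818 did not overlap. With WT mice only, 20 collagens passed, 7 higher and 13 lower, and the 12 collagens lost were *Col1a1*, *Col2a1*, *Col4a1*, *Col4a2*, *Col4a3*, *Col4a4*, *Col6a1*, *Col7a1*, *Col11a2*, *Col14a1*, *Col17a1* and *Col24a1*. Over all genes 4989 were called in that fit, against 10263 with all 17 mice.

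Of the abundant fibrillar collagens *Col3a1*, *Col1a2*, *Col5a1* and *Col5a2* did not pass the test. *Col3a1* spanned 33648 to 77845 in females (median 43229) and 39128 to 47602 in males (median 43070), and its log2 fold change of males over females was -0.00 (-0.33 to 0.33). On the common scale its medians were 41508 in females and 45453 in males. *Col1a2*, *Col5a1* and *Col5a2* were at -0.08 (-0.55 to 0.38), 0.24 (-0.00 to 0.48) and 0.12 (-0.19 to 0.44). *Col1a1*, in contrast, was lower in males. It spanned 10433 to 38987 in females (median 15702) and 7166 to 11616 in males (median 10769), giving -0.73 on the log2 scale with an SE of 0.24 and an adjusted p of 0.0225 by limma. The call was lost without WT male 1. The value was -0.48 without the smooth muscle-rich pair of females and -0.53 without both pairs. On the common scale *Col1a1* spanned 9855 to 37769 in females and 7461 to 12259 in males, and 3 of 10 females lay inside the male range.

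*Col5a3* was the fibrillar gene that was higher in males. Its product is a type V chain that controls fibril assembly together with the other type V chains. It spanned 1734 to 7577 in females (median 4040) and 12098 to 22825 in males (median 12431), with no overlap, a 3.71-fold difference (log2 fold change 1.89, SE 0.22, adjusted p = 2.72e-06). In males *Col5a3* reached 2218 ± 591 per kb and stood above *Col5a1*, whereas in females it was at 620 ± 237 per kb and close to *Col5a1*. The minor fibrillar genes went the other way. *Col11a1* spanned 9 to 594 in females (median 134) and 2 to 8 in males (log2 fold change -4.58), and *Col27a1* 384 to 2046 in females (median 767) and 175 to 265 in males (-1.97), both with no overlap. *Col11a2* (-0.99) and *Col24a1* (-1.38) were lower in males too. *Col2a1* passed at -1.07, but at 0 to 4 normalized counts it was near the floor in both sexes.

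Of the type IV genes, the main pair (*Col4a1* and *Col4a2*) was higher in males and the pair typical of kidney filters (*Col4a3* and *Col4a4*) was lower. *Col4a1* spanned 24985 to 33766 in females (median 28703) and 29368 to 45044 in males (median 36273), or 0.43 on the log2 scale (SE 0.10, adjusted p = 0.00206). *Col4a2* had 0.47 (SE 0.11, adjusted p = 0.00219). In both genes the male and female ranges overlapped. *Col4a3* (-0.63, adjusted p = 0.019) and *Col4a4* (-0.56, adjusted p = 0.0354) were lower, and *Col4a5* (-0.19, interval -0.63 to 0.25) and *Col4a6* (-0.33, interval -0.79 to 0.13) did not pass. The 6 genes lie as 3 head-to-head pairs, and the 2 members of each pair had the same sign. The call of *Col4a3* was lost without WT male 1 or WT male 3, and those of *Col4a4*, *Col24a1* and *Col6a1* in 10, 9 and 7 of the 17 fits that each left out 1 mouse. *Col4a1* and *Col4a2* overlap by 22 bases on chromosome 8, *Col4a4* and *Col4a3* are 71 bases apart on chromosome 1, and *Col4a6* and *Col4a5* are 1308 bases apart on chromosome X (GRCm38). The share of the length-corrected collagen signal held by basement membrane genes spanned 17.9% to 32.1% among females and 29.4% to 33.9% among males, so U9-KO female 3 (32.1%) reached into the male range.

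Type VI collagen genes diverged. *Col6a5* was the collagen most raised in males relative to females, from 296 to 1015 in females (median 586) to 3649 to 9202 in males (median 6834), which was 11.2-fold (log2 fold change 3.49, SE 0.26, adjusted p = 1.12e-08). *Col6a6* spanned 599 to 1231 among females and 1869 to 2562 among males (1.45, SE 0.15, adjusted p = 5.3e-07). *Col6a4* was lower in males, at 115 to 1903 in females (median 587) and 20 to 37 in males (-4.35, SE 0.47, adjusted p = 9.22e-07). None of the 3 overlapped between the sexes. They are neighbours on the minus strand of chromosome 9, with *Col6a6* from 105687809 to 105828160, *Col6a5* from 105856078 to 105960643 and *Col6a4* from 105989454 to 106096783 (GRCm38), so the gene at one end of this row moved against the others. The abundant type VI chains were lower in males or did not pass. *Col6a3* fell by 1.10 on the log2 scale (SE 0.22, adjusted p = 0.000646), *Col6a1* fell by 0.43 (adjusted p = 0.0316), and *Col6a2* was at -0.40 with an adjusted p of 0.0528.

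**Figure D3:**
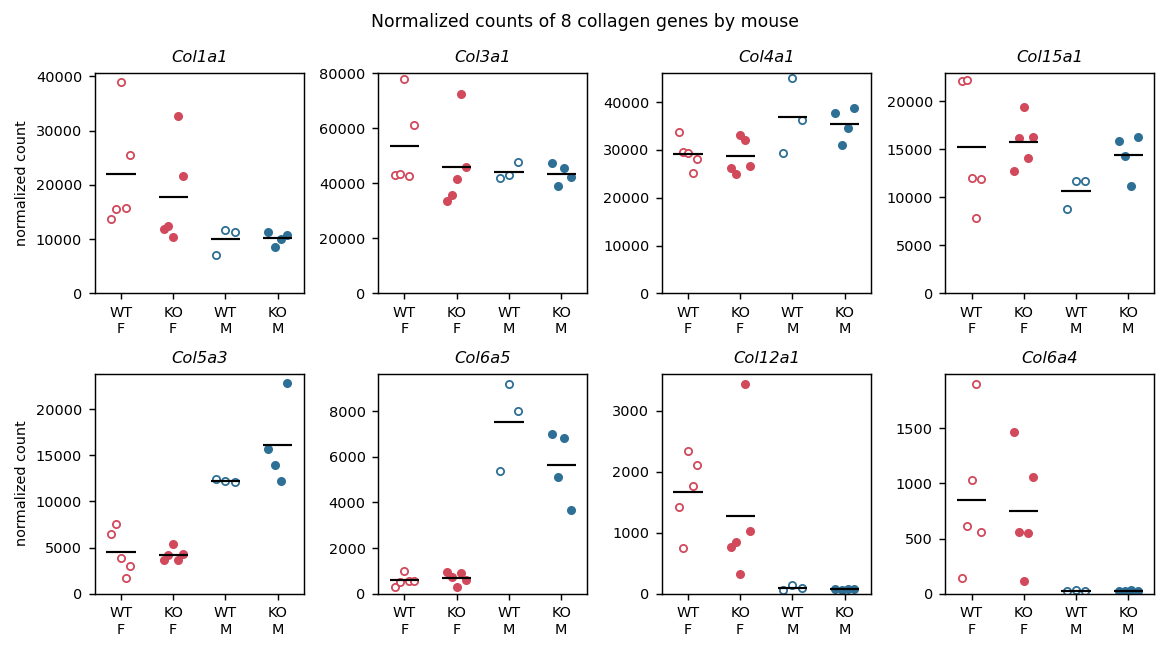
Normalized counts of 8 collagen genes in every mouse, as deposited, with a bar at each group mean; open points are WT, filled points U9-KO, red females and blue males. Genotypes overlap in every panel, whereas *Col5a3* and *Col6a5* are higher in all males than in any female and *Col12a1* and *Col6a4* are lower.

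None of the FACIT genes was higher in males, and 6 of the 8 tested were lower. *Col12a1* spanned 317 to 3437 in females (median 1223) and 64 to 145 in males (median 75), a 13.2-fold difference (log2 fold change -3.73, SE 0.35, adjusted p = 1.8e-07). *Col16a1* spanned 1012 to 3340 among females and 429 to 828 among males (-1.75), and *Col20a1* from 160 to 305 and from 29 to 76 (-1.80), again with no overlap. *Col14a1*, the most abundant FACIT gene per kb, spanned 1763 to 5691 among females and 721 to 2676 among males, with overlap (-1.34, SE 0.25). *Col9a2* had the largest difference, at 6 to 288 in females (median 36) and 0 to 2 in males (-4.63, SE 0.67, adjusted p = 2.7e-05), where the male values are at the floor. *Col9a3* was at -0.89, and *Col19a1* and *Col22a1* did not pass.

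The 2 type VIII genes, whose products form the hexagonal lattices of vessel walls and other membranes, went in opposite directions. *Col8a1* spanned 146 to 390 among females and 322 to 544 among males (0.96, SE 0.16, adjusted p = 0.00011), and *Col8a2* spanned 231 to 687 among females and 54 to 111 among males (-2.24, SE 0.21, adjusted p = 2.03e-07). The multiplexin *Col18a1*, the precursor of endostatin, spanned 2337 to 3993 among females and 4134 to 6837 among males (0.90, SE 0.11, adjusted p = 5.74e-06). Its relative *Col15a1* did not pass, at -0.14 (-0.51 to 0.24). *Col28a1* spanned 77 to 211 among females and 262 to 758 among males (1.75), and *Col23a1*, a transmembrane collagen, was at 0.65. The transmembrane genes *Col25a1* (-3.26), *Col13a1* (-2.15) and *Col17a1* (-1.15), *Col26a1* (-2.96) and *Col7a1* (-1.29) were lower in males. In males *Col25a1* was at 0 to 5 and *Col26a1* at 0 to 4 normalized counts, near the floor. *Col10a1* did not pass, at 0.21 (-0.91 to 1.33).

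**Figure D4:**
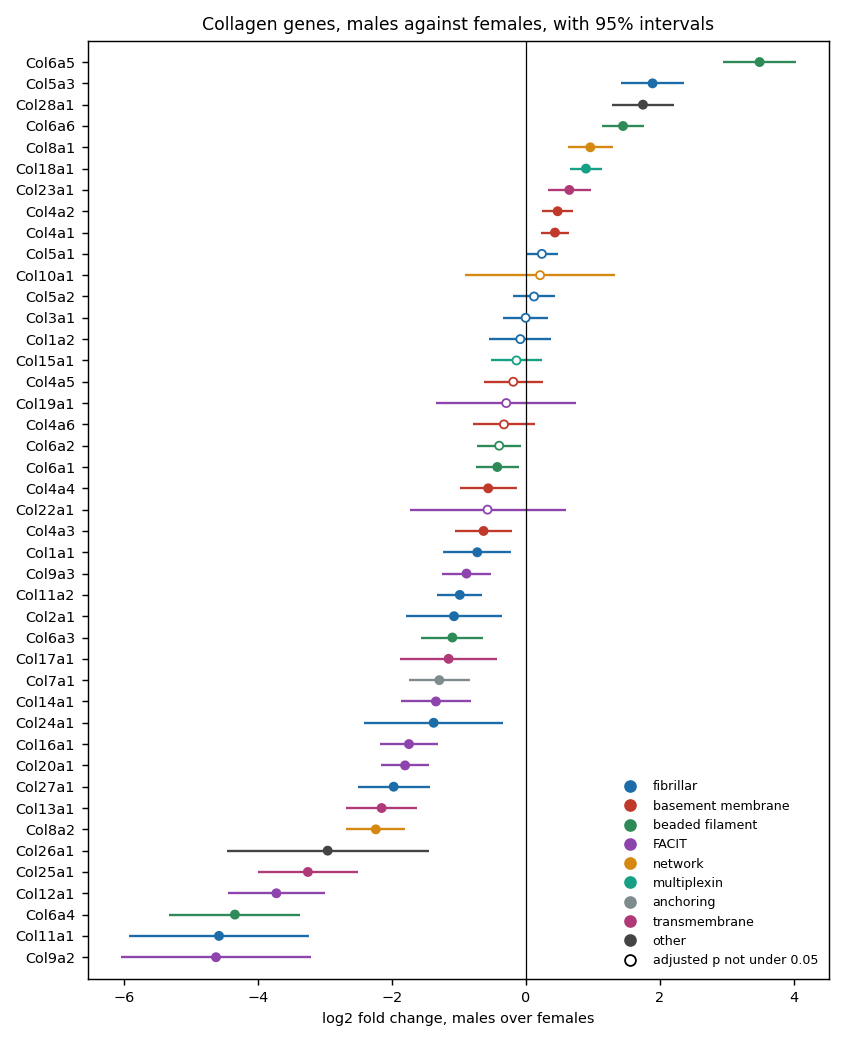
Log2 fold change of males over females for the 43 collagens tested, with 95% intervals and coloured by class; filled points passed an adjusted p under 0.05. *Col6a5* (3.49) and *Col5a3* (1.89) lead among the genes higher in males, and *Col9a2* (-4.63), *Col11a1* (-4.58) and *Col6a4* (-4.35) among those lower.

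Several of these members peaked in the females richest in ovary or smooth muscle markers. U9-KO female 1, the highest in ovary markers, held the female maximum of *Col11a1* (594), *Col9a2* (288), *Col27a1* (2046) and *Col13a1* (132), and WT female 4, the next, that of *Col6a4* (1903), *Col26a1* (118), *Col24a1* (34) and *Col22a1* (55). U9-KO female 4, the highest in smooth muscle and mesothelial markers, held that of *Col12a1* (3437), *Col17a1* (188), *Col6a3* (25759) and *Col8a2* (687). All 10 ovary markers and all 3 oviduct markers were lower in males, as were *Cnn1*, *Myh11*, *Acta2* and *Tagln* of the 5 mural and smooth muscle markers, whereas *Rgs5* was higher. Without the ovary-rich pair of females 31 collagens differed between the sexes, beside 9830 of all genes (10263 with all mice). Without the smooth muscle-rich pair 31 collagens did, 11 higher and 20 lower in males, beside 9356 of all genes. Without both pairs 27 collagens did, 9 higher and 18 lower, beside 8579 of all genes. In that smaller set *Col12a1* was at -3.33, *Col11a1* at -3.81, *Col6a4* at -3.75, *Col9a2* at -4.01, *Col6a5* at 3.83 and *Col5a3* at 1.62. *Col2a1*, *Col4a3*, *Col4a4*, *Col6a1* and *Col24a1* were lost there. The remaining females still held ovary marker sums above those of any male, and the part of these tissues in the collagen differences was not tested. Among other markers, 3 of 5 adipocyte, 4 of 5 endothelial and 3 of 4 macrophage genes were higher in males, and 2 of 6 fibroblast and progenitor genes (*Pi16* and *Cd55*) were lower. The summed endothelial markers were 9596 to 18888 in females against 15316 to 20782 in males, the macrophage markers 3432 to 6786 against 7148 to 15232, and the fibroblast and progenitor markers 11834 to 25466 against 10393 to 17393. Their part was not tested. Epididymis markers summed to 0 to 5 in males, so they were at or near 0 there.

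Sequences upstream of the start sites are shown for *Col3a1*, which did not pass the test between the sexes, and for the fibrillar and type VI genes that were highest in males relative to females. Each is the 250 bases before the RefSeq start site, 5′ to 3′ on the strand of the gene (GRCm38.p6), and none overlaps an annotated exon. Capitals mark the CCAAT box. They also mark the TATA box letters TATAAA. On either strand, the GC box letters GGGCGG are marked as well. Its reverse complement is CCGCCC. *Col3a1* lies at chr1:45311288-45311537 (plus strand), *Col5a3* at chr9:20815068-20815317 (minus strand) and *Col6a5* at chr9:105960644-105960893 (minus strand).
Col3a1: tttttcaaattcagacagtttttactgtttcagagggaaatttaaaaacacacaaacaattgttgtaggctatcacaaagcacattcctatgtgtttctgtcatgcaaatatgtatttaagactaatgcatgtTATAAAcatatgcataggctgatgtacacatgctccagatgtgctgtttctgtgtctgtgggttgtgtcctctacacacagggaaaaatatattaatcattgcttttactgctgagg
Col5a3: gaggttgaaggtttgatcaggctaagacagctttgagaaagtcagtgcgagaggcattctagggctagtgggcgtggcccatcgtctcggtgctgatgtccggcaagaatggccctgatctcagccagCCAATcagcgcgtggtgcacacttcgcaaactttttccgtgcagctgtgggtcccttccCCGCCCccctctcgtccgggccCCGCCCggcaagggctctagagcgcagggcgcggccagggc
Col6a5: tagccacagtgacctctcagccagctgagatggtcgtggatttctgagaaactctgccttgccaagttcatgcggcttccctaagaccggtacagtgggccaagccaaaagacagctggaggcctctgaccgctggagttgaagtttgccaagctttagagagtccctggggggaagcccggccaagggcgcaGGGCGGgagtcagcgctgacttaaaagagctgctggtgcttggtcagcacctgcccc
The *Col3a1* window held the TATA box letters, that of *Col5a3* the CCAAT box and 2 GC boxes, and that of *Col6a5* 1 GC box. The RefSeq promoter table used here held 35 of the 44 collagens, with 38 start sites. The GC box was in 22 of these 38 windows (57.9%), beside 32.7% of all 32817 windows of that length. The CCAAT box was in 13 (34.2%, beside 33.8%) and the TATA box in 5 (13.2%, beside 12.4%), both strands searched. A match of letters is a description and not a binding site.

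The proportions of chains that share a protein were compared within each library, where the size factor cancels. Type I collagen is mostly built with a fixed ratio of *Col1a1* to *Col1a2* products. Ratios here are of counts and were not corrected for exon length, so they are not proportions of molecules. The ratio of *Col1a1* to *Col1a2* normalized counts spanned 0.779 to 1.01 among females and 0.456 to 0.717 among males, with no overlap. The mean log2 ratio was -0.17 ± 0.13 (SD, n = 10) in females and -0.81 ± 0.22 (SD, n = 7) in males, a difference of -0.64 (two-sided exact permutation p = 0.000103, the smallest possible, adjusted p = 0.000771 over 15 comparisons). The *Col8a1* to *Col8a2* ratio also separated the sexes, at 0.337 to 1.19 in females and 3.46 to 7.35 in males, a log2 difference of 3.22 (exact permutation p = 0.000103, adjusted p = 0.000771). In contrast *Col4a1* over *Col4a2* stayed between 1.52 and 1.73 in all 17 mice, with a log2 difference between the sexes of -0.04 (exact permutation p = 0.133, adjusted p = 0.399). *Col5a1* over *Col5a2* and *Col6a1* over *Col6a2* did not pass either (adjusted p = 0.491 and 0.748, exact permutation).

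Between U9-KO and WT mice 0 of the 10 ratio tests passed. *Col1a1* over *Col1a2* differed by -0.09 in females (exact permutation p = 0.31) and by 0.28 in males (exact permutation p = 0.114, adjusted p = 0.399), where 4 against 3 mice allow no p under 0.0571. *Col6a1* over *Col6a2* was 1.04 to 1.11 in U9-KO males and 1.12 to 1.16 in WT males, a log2 difference of -0.08 that reached that smallest p (0.0571, exact permutation) and an adjusted p of 0.286.

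**Figure D5:**
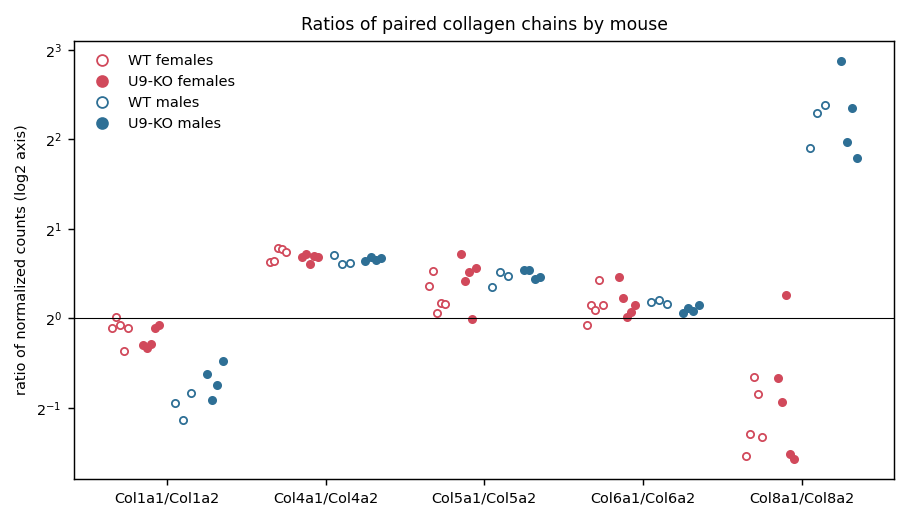
Ratio of normalized counts of 5 pairs of collagen chains in every mouse on a log2 axis, with open points for WT and filled points for U9-KO mice. *Col1a1*/*Col1a2* and *Col8a1*/*Col8a2* separate males from females, and *Col4a1*/*Col4a2* stays between 1.52 and 1.73.

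Among the partner lists, chain modification and folding had 13 of 20 genes that differed between the sexes, 10 of them lower in males. *Plod2*, a lysyl hydroxylase of the collagen ends, was at -3.00 (SE 0.17, adjusted p = 4.8e-10), the prolyl hydroxylase chain *P4ha3* at -4.16, *P4ha1* at -0.60 and *Serpinh1* at -0.88 (SE 0.09, adjusted p = 5.28e-07). *P4ha3* was at 0 to 2 normalized counts in males, near the floor. *P3h3* (-1.17), *P3h4* (-0.96), *Fkbp10* (-0.90), *P3h2* (-0.80), *Colgalt2* (-0.60) and *Ppib* (-0.22) were also lower, and *Tmem38b* (0.41), *Plod1* (0.33) and *Mia3* (0.18) were higher. *Serpinh1* spanned 15484 to 22360 among females and 7585 to 11422 among males, with no overlap. *P4hb*, the next most abundant of the list, did not pass, at -0.00.

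Basement membrane partners went the other way, with 7 of 12 higher in males and 1 lower. *Sparc*, a collagen-binding protein and the most abundant of the list per kb, was at 0.34 (adjusted p = 0.0314) and *Nid1*, which links laminin to type IV collagen, at 0.68 (SE 0.12, adjusted p = 0.000279). *Nid2* (0.86), *Lama2* (0.54), *Lamc1* (0.51), *Lama4* (0.40) and *Lamb2* (0.35) were higher too, and *Agrn* (-0.57) was lower. Of the small leucine-rich proteoglycans, which space collagen fibrils, *Podn* (1.79), *Fmod* (1.63) and *Prelp* (1.44) were higher and *Kera* (-1.69), *Lum* (-1.29), *Omd* (-0.62), *Bgn* (-0.61), *Aspn* (-0.60) and *Ogn* (-0.55) lower, whereas the most abundant, *Dcn*, did not pass (0.19, adjusted p = 0.317). *Kera* was near the floor, at 0 to 10 normalized counts in females and 0 to 1 in males.

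Of 11 collagen receptors 2 were higher (*Lair1*, 0.58, and *Ddr1*, 0.43) and 5 lower in males (*Itga2*, -1.38, *Mrc2*, -1.31, *Itga10*, -1.30, *Itga11*, -1.12, and *Adgrg1*, -0.59). *Itgb1*, the shared beta chain of the collagen-binding integrins, and *Ddr2* did not pass. Among 14 genes of degradation and its inhibitors *Timp4* (3.18), *Ctsk* (0.86) and *Timp2* (0.52) were higher and *Mmp16* (-3.77), *Mmp3* (-2.76), *Timp1* (-2.68) and *Mmp15* (-0.44) lower, and *Mmp2* did not pass. Only 2 of 8 propeptide genes (*Pcolce*, -1.17, and *Adamts3*, -1.21) and 1 of 7 crosslinking genes (*Loxl2*, -0.98) passed, all lower in males, whereas *Adamts2* (-0.19), *Tgm2* (-0.11) and *Pxdn* (0.16) did not pass. Of 14 TGF-beta genes *Tgfb1* (0.64), *Smad2* (0.46) and *Ltbp2* (0.44) were higher and *Tgfb2* (-1.47), *Ltbp1* (-1.34), *Ccn2* (-0.96) and *Smad3* (-0.52) lower, and the most abundant receptors of that list, *Tgfbr3* (0.25) and *Tgfbr2* (-0.15), did not pass. These lists share the background of 39.0% of all genes called and the female tissue markers given above.

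Some collagens share exon bases with other annotated genes on the opposite strand. *Col10a1* overlaps *Nt5dc1*, *Col9a3* overlaps *Tcfl5* and *Col4a1* overlaps *Col4a2*, and *Col4a2*, *Col4a3*, *Col5a1*, *Col6a4*, *Col6a6*, *Col15a1* and *Col22a1* overlap non-coding or unclassified transcripts. The libraries were strand-specific, but the strand setting of the counting is not given in the sources used here, so reads of these partners may not be told apart. On the same strand *Col20a1* overlaps *BX649560.1*, and *Col3a1* and *Col7a1* overlap the microRNA genes *Gm47302* and *Mir711*. Strand cannot separate the reads of these same-strand partners. The paper names the Union mode of summarizeOverlaps for counting, so reads in shared bases may also have been left out.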

How the data were processed

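RNA-seq of pWAT from 17 mice was analysed in 4 groups by sex and genotype. The authors trimmed reads, aligned them with STAR and counted them per gene, and the submitters' processing notes name STAR 2.7.3a, DESeq2 1.28.1 and GRCm38. Each deposited value is a score, the normalized count, which the authors made by dividing read counts by size factors, apparently set within each sex, and rounding. In 2 male libraries the column number differs from the label, which was used.

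GENCODE M21 (GRCm38) named 55141 of 55401 identifiers. limma 3.58.1 (R 4.3.3, lmFit and eBayes with trend) was run on log2(normalized count + 1) of genes whose total over the mice in a fit reached 10, with Benjamini-Hochberg adjustment over all of them and a threshold of 0.05. This scale understates changes of low genes. For males against females, values were divided by each library's median ratio to the mean of 17 libraries (0.948 to 1.06), with genotype as covariate. Chain ratios were compared by exact permutation tests (Python 3.11.15, numpy 2.4.6). Both kinds of test were tested on simulated data.

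The members, partner lists and markers were chosen with earlier results of these data known. Named were fibrillar and type IV members, the most abundant of other classes, called members, and called and most abundant partner genes. Partner genes named for an unadjusted p under 0.05, and other members named beside a result, were chosen after their values were seen. Alternatives were other filters, a pseudocount of 0.5, no trend, TMM or deposited scaling, a replicate block, WT mice only, and leaving out each mouse. Excluding females rich in ovary or smooth muscle markers was chosen after seeing the data.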

Additional observations from a re-analysis of the deposited data

Results flagged for a closer look

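In groups of 4 or 5 mice whose mean normalized count reached 10, a collagen value was looked at again where the gap from the highest or lowest mouse to the next exceeded Dixon's 95% critical value. This held in 7 of 114 groups, and chance gives about 5.7. U9-KO female 1, the highest in ovary markers, stood apart in *Col11a1* (594, the other U9-KO females 60 to 155) and *Col9a2* (288, the others 9 to 50). WT female 4, the next in ovary markers, stood apart in *Col9a2* (250, the other WT females 6 to 36). U9-KO female 4, the highest in smooth muscle and mesothelial markers, stood apart in *Col12a1* (3437, the others 317 to 1024) and *Col17a1* (188, the others 24 to 66). U9-KO female 2 stood apart in *Col23a1* (313, the others 150 to 185) and U9-KO male 1 in *Col11a2* (37, the others 42 to 43). The part of the marker levels in these values was not tested.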

How the results depend on the processing

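Under the other settings 0 collagens were called between U9-KO and WT mice in females, males or both sexes, or for a difference of that effect between the sexes. Between the sexes the count of 32 stayed between 28 and 33 when each mouse was left out in turn and was 20 with WT mice only, where fewer mice were tested. The count was lowest without WT male 3, where 9288 of all genes were called, against 10263 with all mice. Of the 32 collagens called, 20 were called in all 28 alternatives and all 32 kept their direction. The main fits did not pair mice by replicate number. Deviations from the group mean of same-numbered WT and U9-KO mice of a sex correlated between -0.43 and 0.12 over genes. That cannot tell whether the numbers stand for litters, cages or batches, and the labels do not say. With the replicate block 25 collagens were called between the sexes, beside 8604 of all genes. Of these collagens 9 were higher and 16 lower in males, and 0 were called between genotypes.

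Fold changes of U9-KO over WT near 0 turned sign, and the cause was not tested. In females *Col5a3* became -0.16 without the ovary-rich pair and -0.19 without both pairs, *Col4a2* became -0.034, -0.052 and -0.12 without the ovary-rich pair, the smooth muscle-rich pair and both, and *Col15a1* became -0.065 without both. In males *Col6a1* became -0.0018 with TMM scaling and -0.064 with the replicate block. Leaving out each mouse moved *Col15a1* from -0.065 to 0.31, *Col4a1* from -0.087 to 0.023, *Col5a3* from -0.22 to 0.32, *Col4a2* from -0.068 to 0.080 and *Col6a1* from -0.25 to 0.031 in females, and *Col1a1* from -0.18 to 0.17, *Col3a1* from -0.061 to 0.035, *Col4a1* from -0.19 to 0.12, *Col4a2* from -0.25 to 0.12 and *Col6a1* from -0.22 to 0.21 in males. Log2 ratio differences that turned sign were *Col6a1*/*Col6a2* (-0.030 to 0.11 in females, -0.056 to 0.0039 between sexes), *Col8a1*/*Col8a2* (-0.041 to 0.41 in females, -0.16 to 0.20 in males) and *Col4a1*/*Col4a2* (-0.00049 to 0.052 in males). The depth in reads is unknown, and genes near the floor have fold changes set largely by the pseudocount. Examples are *Col2a1*, *Col9a2*, *Col25a1*, *Col26a1*, *P4ha3* and *Kera* in males.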
